A study of Homo sapiens with 18 samples.

Results

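Interferons are cytokines that infected or stressed cells release. They bind paired receptors, JAK1 and TYK2 or JAK2 then phosphorylate STAT proteins, and STAT complexes, one of which holds STAT2 and IRF9, switch on a broad antiviral program through an interferon-stimulated response element (ISRE) in the promoters of their targets. Many cancer cells transcribe some of these genes at low levels without added interferon. The program was followed gene by gene in 41 interferon-induced genes, a list made by name with earlier results of these data known, out of the 23203 genes of the expression table. ZR751 cells, an established line from an ER+ breast cancer, were grown in medium with serum and insulin. ZR751shMLL3 cells stably carry a lentiviral short hairpin RNA against MLL3 (KMT2C), a methyltransferase that places monomethyl marks on lysine 4 of histone H3 (H3K4me1) at enhancers, and ZR751shLucif cells carry a hairpin against luciferase and are the control. Both lines are pools sorted for GFP, not clones, both were sampled at steady state, neither label names an interferon treatment, and 1 hairpin stood for the knockdown (KD). RNA-seq, H3K4me1 and SP1 each have 2 libraries per cell line, and the study's names for the ZR751shMLL3 RNA libraries carry higher numbers after a P, probably passages, than those of the controls. Passage and hairpin then cannot be told apart. The labels do not say that replicates are separate transductions, so p-values measure only the spread between these libraries.

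KMT2C itself was listed at 2.34 and 6.77 FPKM (fragments per kilobase of transcript, scaled to the library) in ZR751shLucif replicates 1 and 2, and at 1.07 and 2.69 FPKM in ZR751shMLL3. The ranges of the cell lines overlapped at the targeted gene. Its log2 fold change was -1.02 (standard error, SE, 0.544, adjusted p = 0.630 by limma), so the direction of every comparison here rests on the labels. Apart from these libraries, the study reports the knockdown by quantitative PCR after transduction. All 7 luminal epithelial markers were above 1 FPKM. Of the 6 leukocyte markers, CD3D was at 0 in all libraries and PTPRC reached at most 0.0318 FPKM, while the summed level of the list was 14.9 and 10.5 FPKM in ZR751shLucif and 16.4 and 10.8 FPKM in ZR751shMLL3, mostly CD68. CD14, a monocyte marker, was at 0.266 and 0.611 FPKM in ZR751shLucif against 1.41 and 1.34 FPKM in ZR751shMLL3, without overlap, and its part in the results was not tested. The summed level of 5 fibroblast and endothelial markers (COL3A1, the other on the list, was not analysed here) was 18.1 and 13.4 FPKM against 17.3 and 17.9 FPKM, nearly all COL1A1. The number of genes above 1 FPKM was 11684 to 11792 per library. Replicate 1 of ZR751shLucif stood apart, with correlations across genes of 0.900 to 0.907 to the other libraries, which correlated at 0.947 to 0.969 with each other. Its library number is also apart from those of the others, which are consecutive. The labels do not say why. Fold changes without this library are given below, and its part in the results was not tested beyond that.

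All 41 genes were in the table with 1 entry each. The filter on low values, a mean log2(FPKM + 0.5) above 1, was passed by 23 of them, and 18 fell below it. Above 1 FPKM there were 24 and 23 of the 41 in ZR751shLucif replicates 1 and 2, and 28 in each ZR751shMLL3 library. The median member was at 1.56 and 1.44 FPKM in ZR751shLucif against 3.78 and 3.42 FPKM in ZR751shMLL3. Among the 23 genes tested the median log2 fold change was 0.62, beside -0.097 for all 11135 genes tested. Of the 23, 21 had a higher mean in ZR751shMLL3 and 2 a lower mean. In 12 of the 23 both ZR751shMLL3 libraries lay above both controls, an order that 17.6% of all genes tested showed, and in 0 did both lie below, which 25.3% of all genes showed. Limma called 0 of the 23 at an adjusted p of 0.05, and 1 gene (0.00898%) in the whole table. At an unadjusted p of 0.05, 9 of the 23 were higher and 0 lower, and 3.66% of all genes tested were higher. IFIT5 and OASL, both among the 9 and the 12, and PARP14 passed the filter only through the ZR751shMLL3 libraries, where they were higher. Of the 20 genes above the filter in each line, a restriction chosen after seeing the data, 10 were ordered upwards and 7 were higher at the unadjusted p, and their median log2 fold change was 0.59.

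Fold changes are differences of log2(FPKM + 0.5), a scale that understates change at low levels, and FPKM carry no counts, so the depth behind each value is unknown. In bulk RNA, more cells that express a gene and more of its RNA per cell cannot be told apart.

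**Figure D1:**
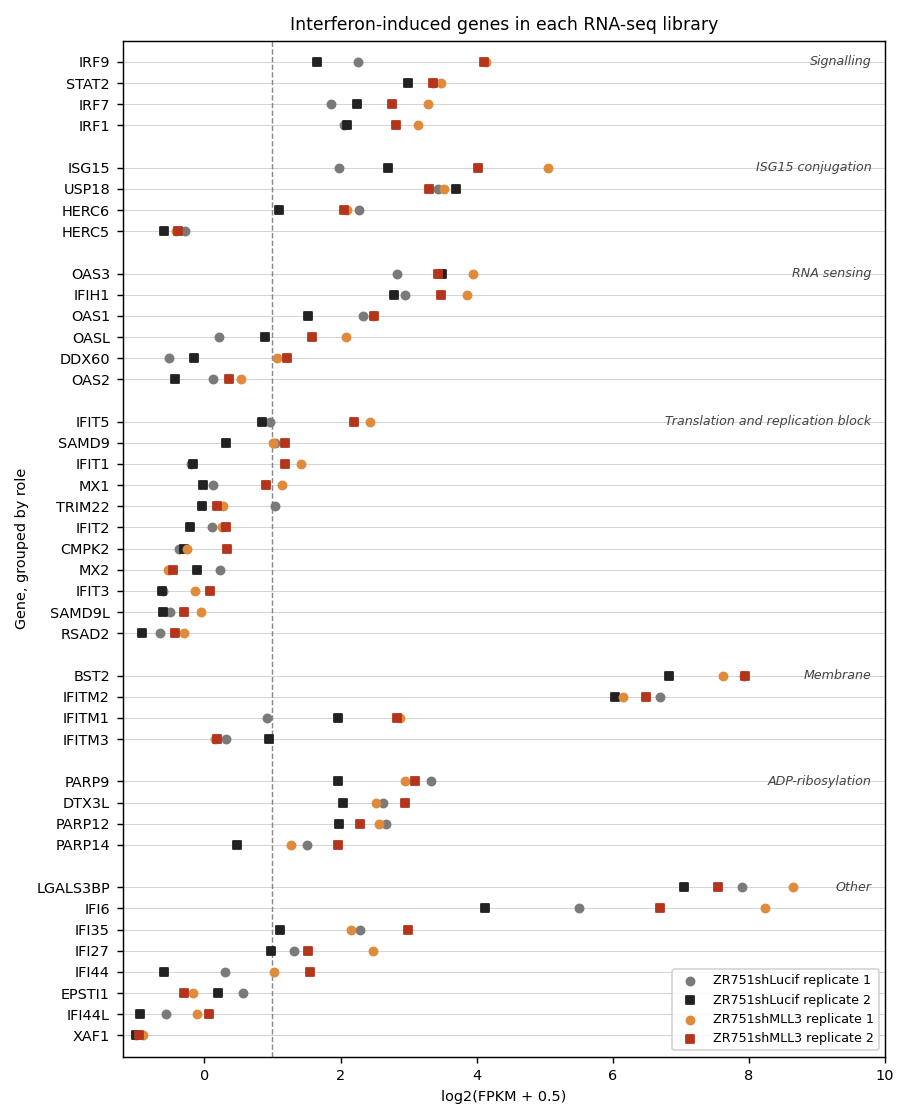
Each of the 41 genes is a row, and each point is 1 RNA-seq library on the log2(FPKM + 0.5) scale, with controls in grey and black and ZR751shMLL3 in orange and red. The dashed line marks the value of 1 used as a filter on the mean. IRF9, ISG15 and IFIT5 show both ZR751shMLL3 libraries clear of both controls, while USP18 and the PARP genes overlap.

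The ISRE is the sequence that most of these genes share. Its core, GAAA, any 2 bases, then GAAA, was searched for on either strand in the 300 bases around the start of each gene, from 250 before to 50 after, as RefSeq gives them on GRCh38.p14. Promoters were matched for 33 of the 41 genes (not for IFIT2, IFITM2, IRF7, MX2, OAS2, OASL, TRIM22 and USP18). Of the 33, 24 held the core (72.7%), compared with 4.38% of 27305 genes. A gamma-activated site, TTCNNNGAA, was in 11 (33.3%, all genes 9.38%), and the GC box GGGCGG, a sequence that SP1 binds, was in 18 (54.5%, all genes 48.3%). The stretches around the first match are shown for the 6 most abundant genes with a core, to let the shared letters be seen. Capitals mark the core, overlapping cores run together, and each is written 5′ to 3′ on the strand of its gene.

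LGALS3BP, chr17:78979947-78980006: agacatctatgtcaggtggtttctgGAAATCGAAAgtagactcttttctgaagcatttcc

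BST2, chr19:17405726-17405785: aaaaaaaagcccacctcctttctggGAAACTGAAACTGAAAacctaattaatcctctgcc

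IFI6, chr1:27672314-27672373: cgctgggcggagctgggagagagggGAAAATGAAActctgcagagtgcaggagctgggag

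ISG15, chr1:1013359-1013418: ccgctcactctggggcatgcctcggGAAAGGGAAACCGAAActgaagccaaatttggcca

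OAS3, chr12:112938306-112938365: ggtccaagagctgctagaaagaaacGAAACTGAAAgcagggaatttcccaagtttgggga

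IFIH1, chr2:162318809-162318868: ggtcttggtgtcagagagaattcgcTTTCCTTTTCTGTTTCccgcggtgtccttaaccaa

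IFI6 held 3 cores in its promoter, and ISG15, BST2 and OAS3 held 2. IFIH1 held 3, of which the 2 shown read on the opposite strand. Genes with and without the motif overlapped widely in their difference in expression, tested members or not. The 24 genes with a core had a median log2 fold change of 0.62, ranging from -0.61 to 2.65, and the 9 without one had a median of 0.39, ranging from 0.064 to 2.17. IRF9, with one of the largest differences, had no core in this window, and LGALS3BP and BST2, with a core, overlapped between the cell lines.

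The 4 transcription factors of the pathway all had higher values in ZR751shMLL3, without overlap, an order that 17.6% of all genes tested showed. IRF9 (chromosome 14 of GRCh37, 24630474 to 24635774, plus strand), the DNA-binding subunit of the complex with STAT2, was at 4.27 and 2.64 FPKM in ZR751shLucif against 17.2 and 16.7 FPKM in ZR751shMLL3. The ZR751shMLL3 libraries were nearly equal, and both far exceeded the controls. This was the member with the lowest p, at a log2 fold change of 2.17 (SE 0.310, adjusted p = 0.230 by limma). IRF1 (chromosome 5, 131817301 to 131826465, minus strand), a factor that responds mainly to interferon gamma, was at 3.66 and 3.79 FPKM in the controls and at 8.28 and 6.56 FPKM in ZR751shMLL3, a log2 fold change of 0.90 (SE 0.274, adjusted p = 0.557 by limma). IRF7 (chromosome 11, 612555 to 615950, minus strand), which amplifies the transcription of type I interferon genes, was at 3.13 and 4.22 FPKM against 9.26 and 6.25 FPKM, with a log2 fold change of 0.97 (SE 0.317, adjusted p = 0.594 by limma). STAT2 (chromosome 12, 56735381 to 56753891, minus strand) moved least. It was at 9.74 and 7.46 FPKM in ZR751shLucif against 10.6 and 9.76 FPKM in ZR751shMLL3, where the lower ZR751shMLL3 library exceeded the higher control by less than the gap between the controls. Its log2 fold change was 0.24 (SE 0.280, adjusted p = 0.783 by limma).

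The ISG15 conjugation genes were divided. ISG15 (chromosome 1, 948877 to 949920, plus strand), a ubiquitin-like protein that is attached to other proteins, was at 3.46 and 5.96 FPKM in ZR751shLucif against 32.4 and 15.6 FPKM in ZR751shMLL3. Both ZR751shMLL3 libraries were above the controls but differed from each other, and the log2 fold change was 2.19 (SE 0.436, adjusted p = 0.399 by limma). USP18 (chromosome 22, 18632937 to 18660164, plus strand), the protease that removes ISG15 and dampens receptor signalling, had the lowest fold change of the 23 genes tested. Its values were 10.2 and 12.4 FPKM in the controls and 11.0 and 9.33 FPKM in ZR751shMLL3, and the log2 fold change was -0.15 (SE 0.277, adjusted p = 0.866 by limma). USP18 has near-identical copies in its region, so the split of its reads is uncertain. HERC5, the ligase that attaches ISG15, was barely detected, at 0.322 and 0.159 FPKM in the controls and 0.249 and 0.264 FPKM in ZR751shMLL3. HERC6 is its paralog, at 4.32 and 1.65 FPKM against 3.78 and 3.62 FPKM, a log2 fold change of 0.39 (SE 0.419, adjusted p = 0.769 by limma). Only the second control library was low at this gene, and without it the log2 fold change was -0.20.

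Among the 6 sensors of viral RNA and their partners, both ZR751shMLL3 libraries lay above both controls in 5, of which 3 were among the 4 tested (17.6% of all genes tested, and 16.6% without the filter, showed this order). IFIH1 (MDA5), which recognises long double-stranded RNA, was at 7.24 and 6.36 FPKM in ZR751shLucif against 14.0 and 10.7 FPKM in ZR751shMLL3. OASL, a member of the oligoadenylate synthetase family without that enzyme activity, was at 0.661 and 1.35 FPKM against 3.72 and 2.49 FPKM. DDX60, a helicase that promotes RNA sensing, was at 0.199 and 0.398 FPKM against 1.60 and 1.81 FPKM, below the filter. The oligoadenylate synthetases, which make the 2′-5′ oligonucleotides that activate RNase L, differed less. OAS1 was at 4.52 and 2.36 FPKM in the controls and at 5.05 and 5.13 FPKM in ZR751shMLL3. OAS2, under the filter, was at no more than 0.949 FPKM in any library, again with both ZR751shMLL3 libraries higher. OAS3 overlapped, with 6.59 and 10.7 FPKM against 14.9 and 10.3 FPKM.

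Genes that block translation or replication of viruses were mostly near the floor of the table. Of the 11, only IFIT5 was tested, and the other 10 spanned 0.0312 to 2.17 FPKM. IFIT5 (chromosome 10, 91174325 to 91180754, plus strand), which binds 5′-triphosphate RNA, was at 1.44 and 1.31 FPKM in ZR751shLucif against 4.92 and 4.08 FPKM in ZR751shMLL3. The replicates were close in both lines, and the log2 fold change was 1.41 (SE 0.269, adjusted p = 0.354 by limma). IFIT1, the neighbour that binds viral RNA lacking a methylated cap, was at 0.368 and 0.390 FPKM against 2.17 and 1.76 FPKM. MX1, a dynamin-like GTPase, was at 0.587 and 0.486 FPKM against 1.71 and 1.38 FPKM. In both of these genes the controls were under 1 FPKM and the ZR751shMLL3 libraries above it. SAMD9 was at 1.55 and 0.750 FPKM against 1.52 and 1.77 FPKM, and TRIM22, a ubiquitin ligase, at 1.56 and 0.480 FPKM against 0.710 and 0.633 FPKM. Both overlapped between the lines. IFIT2, IFIT3, CMPK2, SAMD9L and RSAD2 stayed under 1 FPKM, each with both ZR751shMLL3 libraries above both controls. MX2, the nuclear pore relative of MX1, went the other way, from 0.670 and 0.426 FPKM to 0.193 and 0.226 FPKM.

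At the membrane, the abundant genes did not separate. BST2 (tetherin), which holds budding virus on the cell surface, was at 243 and 113 FPKM in ZR751shLucif against 196 and 246 FPKM in ZR751shMLL3. IFITM2, of the family that blocks fusion of virus with endosomes, was at 103 and 64.9 FPKM against 70.2 and 89.0 FPKM, a log2 fold change of -0.047 (SE 0.332, adjusted p = 0.970 by limma). IFITM1 was at 1.39 and 3.41 FPKM against 6.81 and 6.60 FPKM, without overlap. IFITM3 was listed at 0.749 and 1.44 FPKM against 0.609 and 0.637 FPKM, with both ZR751shMLL3 libraries lower. These 3 IFITM genes are neighbours on chromosome 11 and nearly identical in sequence, so how their reads were shared out, and with it each level, is uncertain.

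The ADP-ribosylation genes gave no separation in any of the 4. PARP9 and its partner ligase DTX3L share a bidirectional promoter. PARP9 was at 9.55 and 3.39 FPKM in ZR751shLucif against 7.22 and 8.08 FPKM in ZR751shMLL3, a log2 fold change of 0.38 (SE 0.466, adjusted p = 0.792 by limma). DTX3L was at 5.64 and 3.62 FPKM against 5.26 and 7.17 FPKM. PARP12, an antiviral ADP-ribosyltransferase, was at 5.85 and 3.43 FPKM against 5.39 and 4.39 FPKM, with a log2 fold change of 0.10 (SE 0.333, adjusted p = 0.928 by limma). PARP14 was at 2.35 and 0.894 FPKM against 1.91 and 3.42 FPKM. In all 4 genes replicate 2 of ZR751shLucif was the lowest library, and replicate 1 lay above at least 1 ZR751shMLL3 library.

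The remaining 8 genes held the largest difference. IFI6 (chromosome 1, 27992575 to 27998703, minus strand), a small protein of the endoplasmic reticulum and mitochondria, was at 44.9 and 17.0 FPKM in ZR751shLucif against 300.2 and 103 FPKM in ZR751shMLL3. The replicates of each line differed widely, but the lines did not overlap, and the log2 fold change was 2.65 (SE 0.636, adjusted p = 0.468 by limma). IFI27, of the same family, was at 1.98 and 1.48 FPKM against 5.06 and 2.38 FPKM. IFI44 was at 0.738 and 0.165 FPKM against 1.54 and 2.44 FPKM, and IFI44L stayed under 1 FPKM with the same order. LGALS3BP, a secreted glycoprotein and the most abundant of the 41, was at 239 and 132 FPKM against 400.0 and 187 FPKM, and IFI35, a partner of the transcription regulator NMI, was at 4.36 and 1.66 FPKM against 3.96 and 7.46 FPKM. Both overlapped. EPSTI1 was at 0.981 and 0.653 FPKM against 0.394 and 0.316 FPKM, both ZR751shMLL3 libraries lower. XAF1, a gene tied to apoptosis, was listed at 0 in both controls and at no more than 0.0337 FPKM in ZR751shMLL3.

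Over all 41 genes, 24 had both ZR751shMLL3 libraries above both controls, 12 of them under the filter. In 3 (MX2, IFITM3 and EPSTI1, all under the filter) both lay below, and 14 overlapped. Of the 18189 genes with a value in at least 1 library, 16.6% were ordered upwards in this way and 22.5% downwards.

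**Figure D2:**
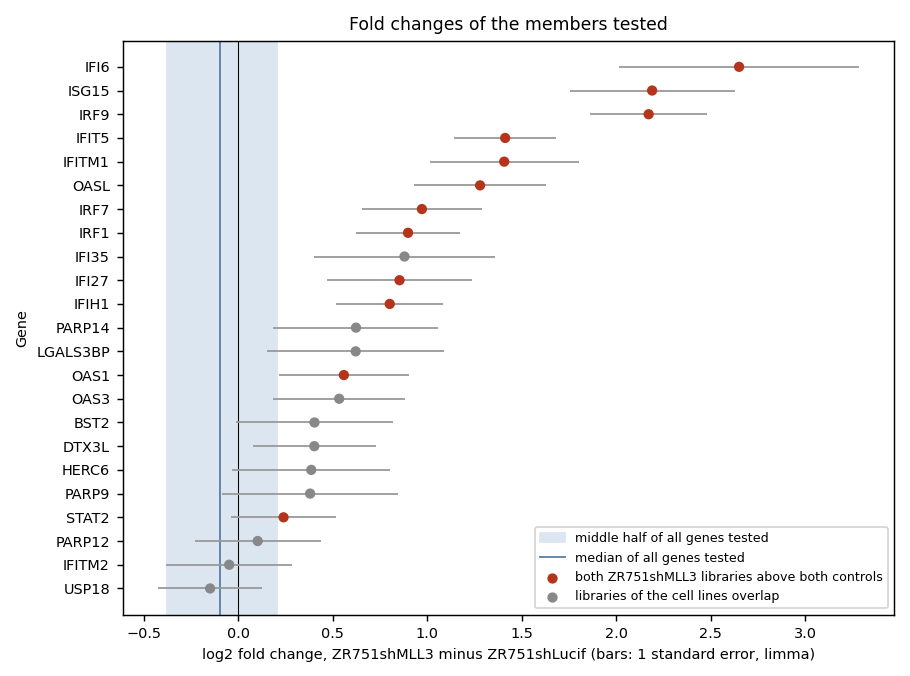
Log2 fold change (ZR751shMLL3 minus ZR751shLucif) of the 23 genes tested, with bars of 1 standard error from limma. Red points are the 12 genes whose libraries do not overlap, and the blue band spans the quartiles of all genes tested, around a median of -0.097. IFI6, ISG15 and IRF9 lie above 2.

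The size of the difference depended on the control library. ZR751shLucif replicate 2 had the lowest value for 27 of the 41 genes. Its 23 tested genes had a median of -0.59 relative to the mean of the 4 libraries, compared with -0.059 for replicate 1 and with 0.52 and 0.29 for ZR751shMLL3. Over all genes tested these medians were -0.074 for ZR751shLucif replicate 2, 0.15 for replicate 1, and -0.077 and -0.014 for ZR751shMLL3. The summed level of the luminal markers was also lowest in ZR751shLucif replicate 2, at 4677 FPKM, and 9130 to 12288 FPKM in the others. Most of that sum was KRT8, KRT18 and KRT19, which were lowest in this library, as was GATA3. ESR1 was instead highest in it, at 14.2 FPKM. FOXA1 and EPCAM, at 102 and 175 FPKM, lay above both ZR751shMLL3 libraries. The part of these levels in the result was not tested. With ZR751shLucif replicate 2 left out, the 23 genes had a median log2 fold change of 0.29, 17 of the 23 genes were above 0, and limma called 5 members (IFIT5, IFITM1, IRF9, ISG15 and OASL) among 1275 genes in all. The control is then 1 library, assumed to vary as the ZR751shMLL3 libraries do, which alone give the spread, so these calls say nothing of the spread between controls. Of these members, IFIT5 and OASL passed the filter only through the ZR751shMLL3 libraries. Without ZR751shLucif replicate 1 the median was 0.95 and 0 members were called. Over all genes tested the median log2 fold change was -0.19 without ZR751shLucif replicate 2 and 0.015 without replicate 1. ISG15, IFI6 and IRF9 kept log2 fold changes of at least 1.68 whichever library was left out. The fold change of BST2 ranged from -0.15 to 0.95 and that of PARP9 from -0.30 to 1.07.

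**Figure D3:**
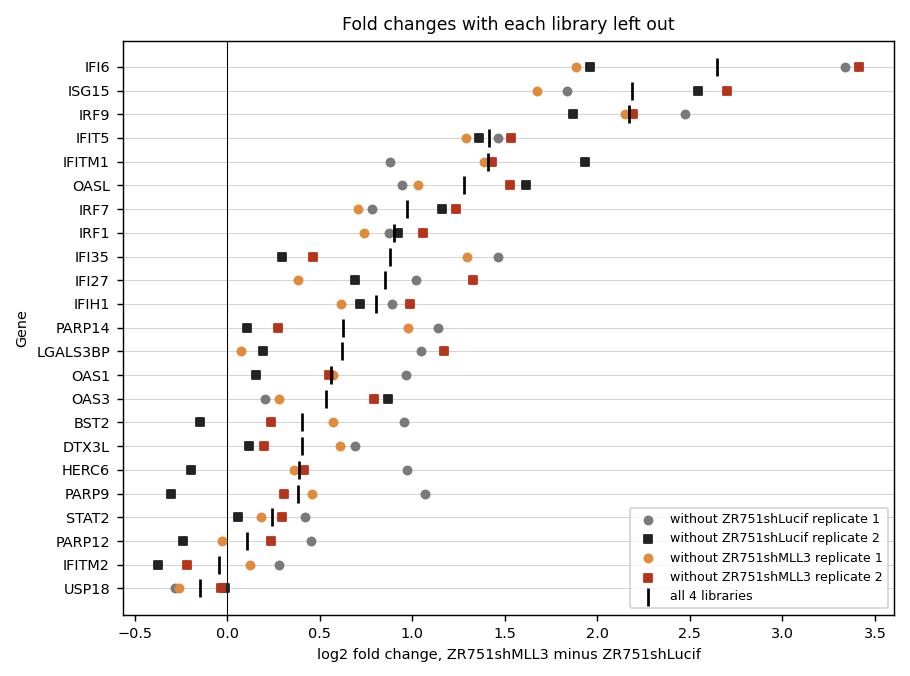
Log2 fold change of each of the 23 genes tested with all 4 libraries (bar) and with each library left out (points). Black squares, without ZR751shLucif replicate 2, fall below 0 for 6 genes, while IFI6, ISG15 and IRF9 stay at 1.68 or above.

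The rest of the interferon pathway was read from 37 further genes. The 15 interferon genes were at or near 0: 11 were at 0 in all 4 libraries, and the highest value was 0.114 FPKM, for IFNL1. Of the other 22 genes, 20 were tested and 0 were called. SOCS3, an inhibitor of JAK kinases, was the 1 gene with an unadjusted p under 0.05, at 2.28 and 2.44 FPKM in ZR751shLucif and 4.67 and 4.37 FPKM in ZR751shMLL3 (log2 fold change 0.81, SE 0.261, adjusted p = 0.585 by limma). The receptor subunits for type I interferon overlapped. IFNAR1 was at 6.69 and 9.54 FPKM against 8.45 and 8.97 FPKM, and IFNAR2 was at 7.13 and 4.42 FPKM against 4.39 and 5.82 FPKM. The kinases JAK1 and JAK2 overlapped too, and TYK2 was lower in both ZR751shMLL3 libraries, at 11.8 and 10.8 FPKM against 10.5 and 9.12 FPKM. Among the 20, both ZR751shMLL3 libraries were above both controls in 6 and below in 5, beside 17.6% and 25.3% of all genes tested, and the median log2 fold change was 0.11. The share lower was thus that of all genes. The 6 include DDX58 (RIG-I), MAVS, IKBKE and IRF3, which pass on the signal of viral RNA, and the 5 include TBK1 and the phosphatase PTPN2.

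H3K4me1 marks enhancers and is the mark that MLL3 places, so peaks were counted within 50 kb of the gene bodies on GRCh37 (hg19). Peaks were called by the authors in each library against the input of its cell line, and a peak counted as reproducible when an irreproducible discovery rate (IDR), from the ranks of overlapping peaks in both replicates, was 0.1 or less. In ZR751shLucif, 16 of the 41 genes (39%) had a reproducible H3K4me1 peak nearby, beside 44.3% of 21518 genes with a position. In ZR751shMLL3 there were 4 (9.76%), beside 21% of all genes. In ZR751shLucif the share of the 41 was near that of all genes. In ZR751shMLL3 it was lower, but it rests on 4 genes, of which IFIT2 and IFIT3 have their peak in common. These counts depend on how replicate peaks were paired. With every overlapping pair they were 6 and 0, limited to the 50000 highest ranks per list 16 and 9, and within 10 kb they were 6 and 0. Shares of all genes are not given for these settings, so the counts do not set the 41 apart from other genes.

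The 16 genes shared 23 peaks, since neighbours have windows in common. The IFIT cluster on chromosome 10 held 6 of them. The best ranked, at 91132988 to 91134314, had its summit at -18910 bases from the start of IFIT1, and was ranked 2994 and 2518 in the ZR751shLucif lists. In ZR751shMLL3 it was ranked 41967 in replicate 1 and not listed in replicate 2. Next to IFIT2, the peak at 91038457 to 91039420 was ranked 11445 and 25351 in ZR751shLucif and 7676 and 6185 in ZR751shMLL3, and it was reproducible in both. LGALS3BP had a peak at 77001726 to 77002897 of chromosome 17, ranked 1912 and 4062 in ZR751shLucif and 66711 and 37844 in ZR751shMLL3, and another at 76992249 to 76993088 that was reproducible in ZR751shMLL3 only. PARP14 had 1 peak in both lines, beyond the end of the gene. The other genes with a peak in ZR751shLucif were DDX60, DTX3L, EPSTI1, HERC5, HERC6, IFIT3, IFIT5, IRF1, PARP9, SAMD9, SAMD9L and USP18. IRF1 and IFIT5, both higher in each ZR751shMLL3 library, had 3 each, and EPSTI1, lower in each, had 2. IFI6, ISG15 and IRF9 had none. In ZR751shMLL3, replicate 1 listed an overlapping peak for 19 of the 23 and replicate 2 for 20. Among the 50000 top-ranked peaks of those lists there were 6 and 9.

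**Figure D4:**
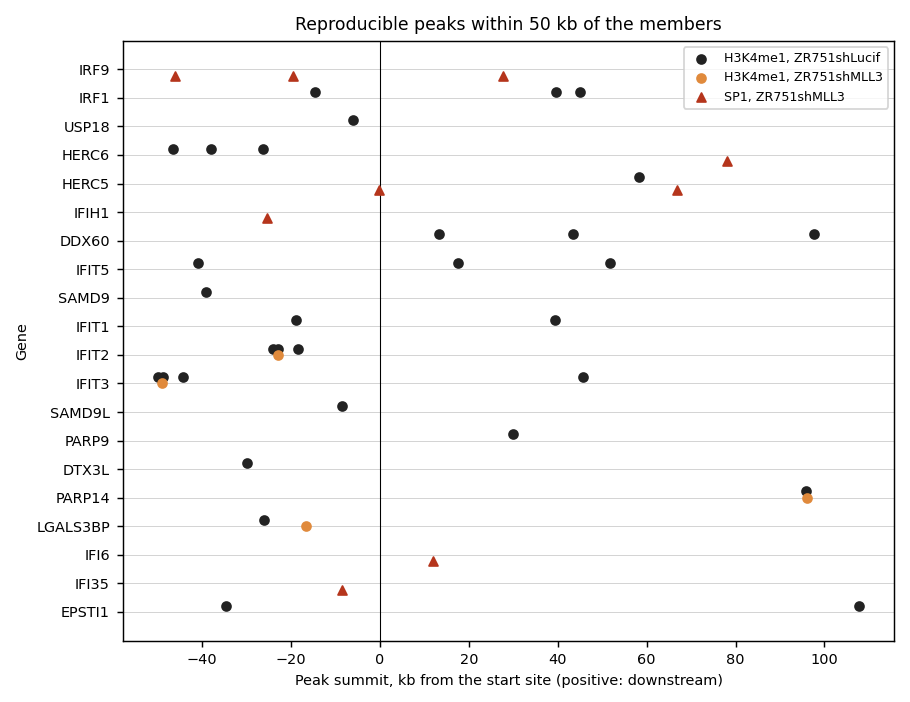
Reproducible peaks within 50 kb of the gene bodies, by the distance of the summit from the start site in kb, for the 20 genes that had one. Black points are H3K4me1 in ZR751shLucif, orange points H3K4me1 in ZR751shMLL3 and red triangles SP1 in ZR751shMLL3. One SP1 peak lies at a start site, that of HERC5.

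By the authors' false discovery rate (FDR) of 0.01 in single libraries, 37 and 36 of the 41 genes had an H3K4me1 peak within 50 kb in ZR751shLucif, against 19 and 33 in the KD. Over all genes with a position the shares were 81.7 and 87.3% in ZR751shLucif and 50.0 and 80.2% in ZR751shMLL3. The mean was 36.5 ± 0.707 genes (SD, n = 2) in ZR751shLucif and 26 ± 9.90 genes (SD, n = 2) in ZR751shMLL3, which is -10.5 genes (exact two-sided permutation p = 0.333, which no split of 4 libraries into pairs can go below). Without ZR751shMLL3 replicate 1 the difference was -3.5 genes, and without replicate 2 it was -17.5 genes. At IFITM1, IFITM2 and IFITM3 there were 0 such peaks in every library. Few strong peaks lay close to the start sites. Within 2 kb, 21 and 22 of the 41 had any listed peak in ZR751shLucif and 18 and 17 in ZR751shMLL3, and the best rank of all was 15391, at IFIH1 in ZR751shMLL3 replicate 1. For any listed peak the shares of all genes were 50.3, 48.4, 43.1 and 43.1%.

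SP1 is a factor that binds GC boxes in many promoters. In ZR751shLucif, 0 of the 41 genes had a reproducible SP1 peak within 50 kb (IDR of 0.5 or less, a looser threshold than for H3K4me1), beside 4.57% of all genes. In ZR751shMLL3 there were 6 (14.6%), namely HERC5, HERC6, IFI35, IFI6, IFIH1 and IRF9, beside 17.8% of all genes. At an IDR of 0.1 there were 4, for which no share of all genes is given here. The 6 genes shared 8 peaks, of which 6 held a GC box within 100 bases of the summit. Of the 1943 reproducible SP1 peaks of ZR751shMLL3, 37.7% did. The peak with the best ranks, 22 and 346 in the ZR751shMLL3 lists, had its summit at -46124 bases from the start of IRF9 and held 0 GC boxes, and 2 more lay near IRF9. It was not listed in ZR751shLucif replicate 1 and was ranked 24216 in replicate 2. At IFI35 the peak was ranked 116 in ZR751shLucif replicate 2 and was not listed in replicate 1. Only the peak at HERC5 lay at a start site, with its summit at -132 bases and ranks of 2379 and 6862, and it was not listed in either control library. Its sequence, chr4:89378038-89378238 on the forward strand of GRCh37, is shown with its 3 GC boxes, here all as the reverse complement, in capitals.

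HERC5 SP1 peak: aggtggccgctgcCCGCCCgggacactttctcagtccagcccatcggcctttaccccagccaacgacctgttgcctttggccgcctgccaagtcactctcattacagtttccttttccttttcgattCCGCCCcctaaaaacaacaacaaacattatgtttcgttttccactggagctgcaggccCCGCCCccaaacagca

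HERC5 RNA was at most 0.322 FPKM in any library and overlapped between the lines. The SP1 lists of the lines were of unlike kind, and the counts at an FDR of 0.01 followed this. The control lists never reached that FDR, with a lowest value of 0.0290 and 0.0622, whereas 204178 of the 209985 peaks of ZR751shMLL3 replicate 1 and 12065 of the 300000 of replicate 2 did. Accordingly 0 and 0 of the 41 genes had such a peak in ZR751shLucif and 36 and 15 in ZR751shMLL3 (exact two-sided permutation p = 0.333, n = 2 per cell line), against 96.9 and 58.1% of all genes in the ZR751shMLL3 libraries. The difference of 25.5 genes was 15 without ZR751shMLL3 replicate 1 and 36 without replicate 2. Within 2 kb of the start site any SP1 peak was listed for 11 and 10 of the 41 in ZR751shLucif and for 11 and 19 in ZR751shMLL3. Over all genes the shares were 34.1 and 37.6%, and 28.3 and 62.4%. The best ranked of these was at STAT2, ranked 714 in ZR751shMLL3 replicate 2, 83983 in replicate 1 and 12505 in ZR751shLucif replicate 2. The control and ZR751shMLL3 inputs came from different library series, so the input and the hairpin cannot be told apart in any of these counts.

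**Figure D5:**
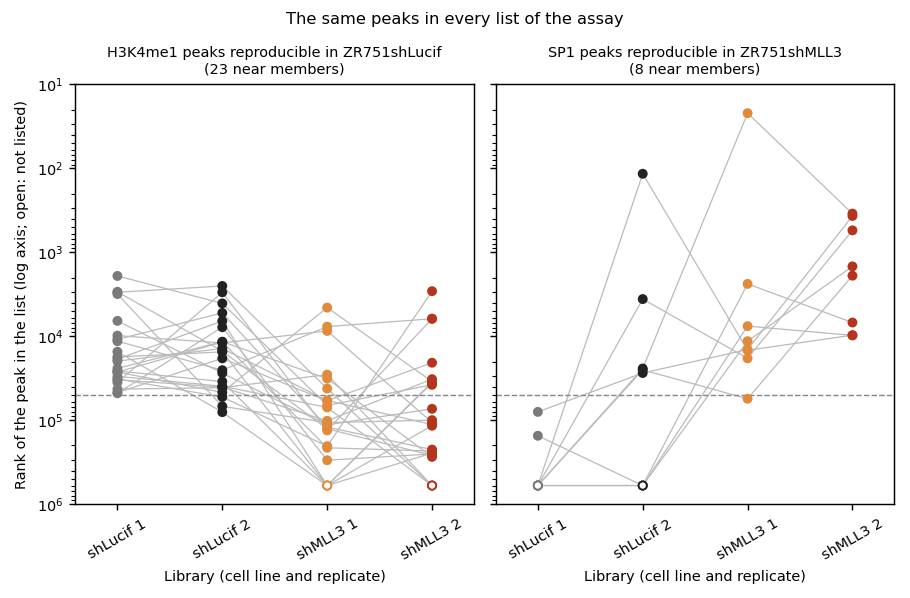
Rank by signal (log axis, 1 is strongest) of the 23 H3K4me1 peaks near the genes that were reproducible in ZR751shLucif and of the 8 SP1 peaks reproducible in ZR751shMLL3, looked up in all 4 libraries of the assay. Lines join the same peak, open points stand for a peak not listed and are drawn below the longest list, and the dashed line is rank 50000. The peaks were chosen for high ranks in the line named above each panel, so lower ranks in the other line are in part built in.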

How the data were processed

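The deposited expression table holds the authors' FPKM per RefSeq gene, made from stranded total RNA with TopHat2 2.0.13, Cufflinks 2.2.1 and Cuffnorm 2.2.1 on hg19. Accessions of 97.4% of its 23500 entries matched a RefSeq symbol, and entries of 1 symbol were summed. The members and lists were chosen with earlier results of these data known. Differences in log2(FPKM + 0.5) were tested two-sided by limma (version 3.58.1, R 4.3.3), keeping genes whose mean exceeded 1, and p-values were adjusted over all of them by Benjamini-Hochberg. The study used surrogate variables, and 1 (the first principal component of the residuals) was an alternative here. Values per library were given for every member tested and for those above 1 FPKM anywhere or singled out after their values were seen. Fold change, standard error and adjusted p were given for the 6 lowest and 4 highest fold changes and for STAT2, IRF1, IRF7 and IRF9.

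The authors aligned ChIP-seq reads with BWA 0.7.5a-r405, removed duplicates with Picard 1.126 and called peaks with SPP in each library. The deposited lists give SPP's signal, used here only for ranks within a list, and the −log10 of the authors' FDR. Replicate peaks overlapping by at least 1 bp were paired one to one with bedtools 2.31.1, best summed rank first. A Gaussian copula mixture in Python 3.11.15 (numpy 2.4.6, scipy 1.17.1, pandas 2.3.3) gave the IDR, with thresholds of 0.1 for H3K4me1 and 0.5 for SP1 from the study's table of IDR settings. A legend of the study gives 0.05 for SP1, and the study applied its thresholds to pooled reads, which was not done here. Pairs below the median rank of both lists were left out, and overlapping pairs were merged. Gene bodies were canonical GENCODE v44lift37 transcripts. The scripts were tested on simulated data, and figures were drawn with matplotlib 3.10.9. ERα lists were not used here.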

Additional observations from a re-analysis of the deposited data

How the results depend on the processing

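Direction and side of the threshold were kept in 133 of the 150 values of the 12 named genes under the 13 other settings for expression, 10 passed an adjusted p of 0.05 only under the other setting, and 7 changed sign. Members called were 6 with 1 surrogate variable, 2 with the replicate block (IFI6 and IRF9), 1 with the replicate block and the GC content trend removed, 0 to 5 with a library left out, and 0 otherwise. Genes called in the whole table under these settings were 476, 33, 15 and 2 to 1275. Same-numbered libraries did not deviate together (correlation 0.0374), so the block is a setting and not a design. The block, the surrogate variable and the other filters by themselves left each log2 fold change as it was, so direction could not change there. The surrogate variable came from the residuals of these same libraries, so its p-values rest on less of the spread between replicates. IFIT5 and OASL, which passed the filter only through the ZR751shMLL3 libraries, were among its 6 members called. The median log2 fold change ranged from 0.29 to 0.95 with a library left out, beside -0.19 to 0.015 over all genes tested. Members whose lines did not overlap were 24 of 41 higher (16.6% of all genes) and 3 lower without a filter. With the filter at 3 they were 5 of 10 higher (17.6% of all genes) and 0 lower. With a library left out these counts were 13 to 21 higher and 0 to 4 lower, since 1 library is then set against 2, an order that 24.5 to 41.3% of all genes tested showed upwards and 32.7 to 54.7% downwards. The 21 arose without ZR751shLucif replicate 1, where 41.3% of all genes were higher. IFITM2 changed sign with quantile normalization (0.071) and, with libraries left out, ranged from -0.38 to 0.28. PARP12 ranged from -0.24 to 0.45, PARP9 from -0.30 to 1.07 and HERC6 from -0.20 to 0.97.

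Genes with a reproducible H3K4me1 peak in ZR751shLucif and ZR751shMLL3 were 29 and 13 with an FDR of 0.01 in both replicates, 9 in ZR751shMLL3 with the 50000 top-ranked peaks, 10 in ZR751shLucif with an overlap of 50% of the shorter peak, 6 and 0 with every overlapping pair (chosen after seeing the data), and 6 and 0 within 10 kb. For SP1 in ZR751shMLL3 there were 3 within 10 kb. The H3K4me1 difference of -10.5 genes with a peak at an FDR of 0.01 kept its direction but was -3.5 without ZR751shMLL3 replicate 1, -17.5 without replicate 2 and -19 at an FDR of 0.001. The SP1 difference of 25.5 was 15 without ZR751shMLL3 replicate 1, 36 without replicate 2 and 20 at an FDR of 0.001. At an FDR of 0.001, 13934 and 16278 of all 21518 genes with a position had an H3K4me1 peak within 50 kb in ZR751shLucif. In ZR751shMLL3, 0 and 11255 did. For SP1 these numbers were 0 and 0 in ZR751shLucif and 16874 and 7202 in ZR751shMLL3. The cause of the changes between settings was not tested. Depth was unknown for single genes and peaks.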
